A study of Homo sapiens with 12 samples.

Results

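Expression of 58 genes of G2 phase and mitosis was followed in LNCaP cells with and without Bag-1L. The genes were chosen by name, from their known roles, but with earlier results of these data known. All 58 were found among the 63677 gene identifiers counted in each sample, of which 26156 had enough counts to be tested. LNCaP is an established human prostate cancer line that grows in response to androgen, and Bag-1L is the longest protein made from the BAG1 gene, which encodes cochaperones. Poly(A) RNA was sequenced from a Bag-1L knockout line (KO) and a TALEN vector control line, each grown under 3 culture conditions, to learn what the loss of Bag-1L changes in the transcriptome. FM was full medium, RPMI 1640 with fetal bovine serum. EtOH was 72 h of starvation in phenol red-free RPMI 1640 with charcoal-treated serum and then 16 h of ethanol, the vehicle. DHT was the same starvation and then 16 h of 10 nM dihydrotestosterone, an androgen. This gave 6 groups (Control FM, KO FM, Control EtOH, KO EtOH, Control DHT and KO DHT) of 2 biological replicates. The TALEN, an engineered nuclease, had removed the start codon of Bag-1L, and the shorter BAG1 proteins keep theirs. The lines had been isolated as clones, so a difference between KO and control cannot be told apart from one between clones. FM and the starved groups also differed in serum and in the phenol red-free medium, and no vehicle treatment is listed for FM. FM against EtOH is therefore not a comparison of androgen alone.

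Entry into mitosis is driven by CDK1 bound to A- and B-type cyclins, and is prepared in G2 phase, when the mRNAs for spindle, kinetochores and condensed chromosomes accumulate. Many of these genes are transcribed together: the DREAM complex holds them down in resting cells, and B-MYB with MuvB, then FOXM1, raise them in cycling cells through a promoter element called CHR (cell cycle genes homology region), often near CCAAT boxes bound by NF-Y. In tumors they serve as proliferation markers, and in bulk RNA a lower level can come from fewer cells in late cell cycle phases or from less RNA in each, which these counts cannot tell apart.

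Since the genes share promoter elements, RefSeq promoters (GRCh38.p14, from 250 bases before to 50 bases after a gene start) were searched on both strands for CHR (TTTGAA or TTCGAA) and CCAAT. The RefSeq table held 62 promoters of 50 members. AURKA, TPX2, RACGAP1, FOXM1, TTK, BIRC5, BUB3 and UBE2C had no entry. CHR letters were found in 64.5% of the member promoters and 16.4% of all 35116 promoters, and CCAAT in 69.4% and 34.6%. An E2F element of S phase genes (TTGGCGC or TTCCCGC) was present in 19.4% of the member promoters and 9.2% of all. By gene, 37 members held CHR, 38 held CCAAT, 29 held both and 4 held neither. A match is a run of letters and not a site shown to be bound. Only these exact letters were searched, so a promoter without a match was not shown to lack the element. At most 2 CHR matches shared bases with a CCAAT match, and at most 1 CCAAT match with an E2F match. The 250 bases before the start are shown for 5 genes whose promoters matched both CHR and CCAAT, and for MYBL2, which matched neither. They run 5′ to 3′, and capitals mark CHR and CCAAT on either strand.
CCNB2 (chr15:59104896-59105145, plus strand): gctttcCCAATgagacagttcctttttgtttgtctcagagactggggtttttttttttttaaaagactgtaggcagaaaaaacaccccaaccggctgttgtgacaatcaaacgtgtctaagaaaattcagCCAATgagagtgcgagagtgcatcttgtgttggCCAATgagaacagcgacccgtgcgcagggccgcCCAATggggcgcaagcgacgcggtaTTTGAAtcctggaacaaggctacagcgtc
PLK1 (chr16:23678639-23678888, plus strand): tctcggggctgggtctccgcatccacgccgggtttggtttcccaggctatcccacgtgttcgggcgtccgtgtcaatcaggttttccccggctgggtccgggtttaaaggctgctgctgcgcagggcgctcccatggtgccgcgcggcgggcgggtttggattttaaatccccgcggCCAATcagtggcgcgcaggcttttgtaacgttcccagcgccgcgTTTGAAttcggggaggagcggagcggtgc
CDC20 (chr1:43358731-43358980, plus strand): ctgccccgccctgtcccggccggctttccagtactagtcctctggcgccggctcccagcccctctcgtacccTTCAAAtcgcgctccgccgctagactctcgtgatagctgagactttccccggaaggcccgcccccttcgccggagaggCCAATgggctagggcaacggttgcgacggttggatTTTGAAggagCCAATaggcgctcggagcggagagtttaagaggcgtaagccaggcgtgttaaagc
KIF11 (chr10:92592880-92593129, plus strand): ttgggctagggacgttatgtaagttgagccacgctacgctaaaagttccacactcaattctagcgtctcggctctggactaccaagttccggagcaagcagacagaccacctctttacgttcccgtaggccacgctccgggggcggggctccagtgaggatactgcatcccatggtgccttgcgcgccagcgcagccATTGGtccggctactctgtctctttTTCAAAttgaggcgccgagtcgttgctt
PRC1 (chr15:90994536-90994785, minus strand): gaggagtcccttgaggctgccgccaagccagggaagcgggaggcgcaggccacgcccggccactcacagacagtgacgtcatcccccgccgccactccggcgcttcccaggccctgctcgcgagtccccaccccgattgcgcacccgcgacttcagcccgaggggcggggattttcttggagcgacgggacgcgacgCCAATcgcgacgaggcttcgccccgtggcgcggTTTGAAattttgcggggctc
MYBL2 (chr20:43666864-43667113, plus strand): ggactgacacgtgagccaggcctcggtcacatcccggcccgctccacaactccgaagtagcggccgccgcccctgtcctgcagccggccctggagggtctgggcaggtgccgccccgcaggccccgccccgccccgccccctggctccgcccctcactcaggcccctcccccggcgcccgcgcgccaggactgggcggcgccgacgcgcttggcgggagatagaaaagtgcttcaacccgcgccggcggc
A CHR lay close to the start in CCNB2 (cyclin B2), PLK1 (polo-like kinase), KIF11 (the kinesin that separates spindle poles) and PRC1 (which bundles microtubules of the central spindle), beginning at -29, -29, -28 and -20 from the gene start. CDC20, which activates the anaphase-promoting complex, had CHR at -65 and -178. Over all member promoters 30 of the 54 CHR matches began between -40 and 9, and 54 of the 91 CCAAT matches between -110 and -41. Promoters of the same gene can overlap, so that a match may be counted more than once.

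**Figure D1:**
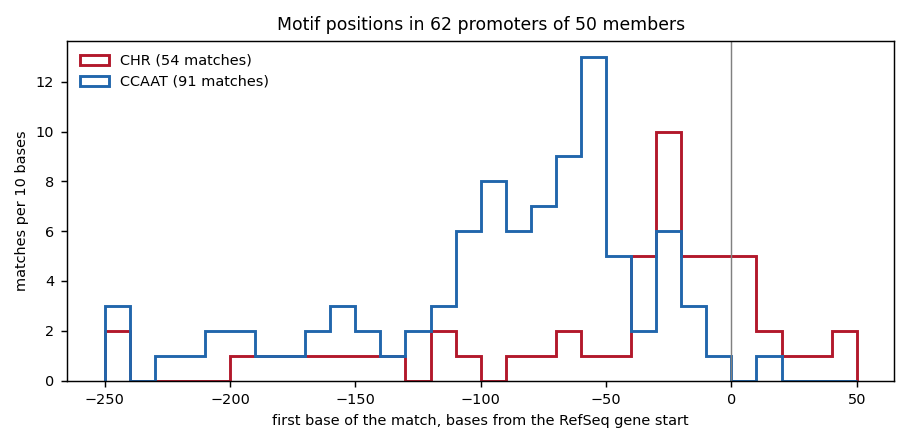
Number of matches (y axis) to CHR (54 in all) and CCAAT (91 in all) by the position of their first base from the gene start (x axis, bins of 10 bases) in 62 RefSeq promoters of 50 members. CHR matches gather around the start, 30 of them between -40 and 9, and CCAAT matches lie further upstream.

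Gene counts summed to between 20826843 and 30354666 per sample, and the members had between 105 and 15920 counts in any sample. All 58 passed the filter on low counts and were tested. Per kilobase of exon their mean normalized counts (counts divided by DESeq2 size factors) ran from 58.7 for CENPK, a centromere protein, to 2413.6 for CDC20, with a median of 317.9. CENPK is named here after its value was seen. The cells carried luminal prostate markers: KLK3, KLK2, HOXB13, KRT8, KRT18 and FOLH1 each had at least 2935 counts in every sample. Of 8 markers of other cell types, PTPRC and CD3E (immune cells) had at most 1 count, and all but COL1A1 (378 to 1003) stayed at or under 58. The 8 markers summed to 460 to 506 counts in FM and 624 to 1034 in the starved groups, most of it COL1A1, and their part in the results was not tested. BAG1 counts cover every BAG1 protein form and cannot check the loss of Bag-1L. BAG1 had 1702 and 2703 normalized counts in Control EtOH against 1191 and 1103 in KO EtOH. Under DHT the control samples had 2199 and 2631 and the KO samples 1076 and 1114, and under FM these were 2117 and 1968 and 1452 and 1576. The Control EtOH replicates differed most from each other: the members' absolute log2 difference had a median of 0.192, where the other groups had 0.064 to 0.157. That difference followed exon length (Spearman's rho -0.66 over 58 genes, a description across genes of 1 pair of libraries). MKI67, a long gene, read 3033 and 2010.3, and PTTG1, a short one, 2133 and 3269. Other pairs carried such trends too. Over the members rho with exon length was -0.50 in Control DHT, -0.43 in KO FM and 0.42 in KO EtOH. With GC content it was -0.68 in Control FM and 0.66 in KO DHT. Where calls rest on Control EtOH, counts from fits that correct each sample for exon length or GC content are given below.

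The samples formed a series of steps in the level of these genes. Centered on each gene's mean, the mean log2 level of the 58 was highest in Control FM (0.85 and 0.85) and next in KO FM (0.70 and 0.64). For Control EtOH it was -0.06 and -0.05, and for Control DHT -0.24 and -0.21. The starved KO cells were lowest, at -0.61 and -0.52 for EtOH and -0.63 and -0.72 for DHT. The KO EtOH and KO DHT samples were neighbors in this order, and the gap between the nearest of them was smaller than that between the replicates of either group. In share of all gene counts, the members made up 0.666% to 0.734% in FM, 0.338% to 0.422% in starved control cells and 0.27% to 0.319% in starved KO cells.

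**Figure D2:**
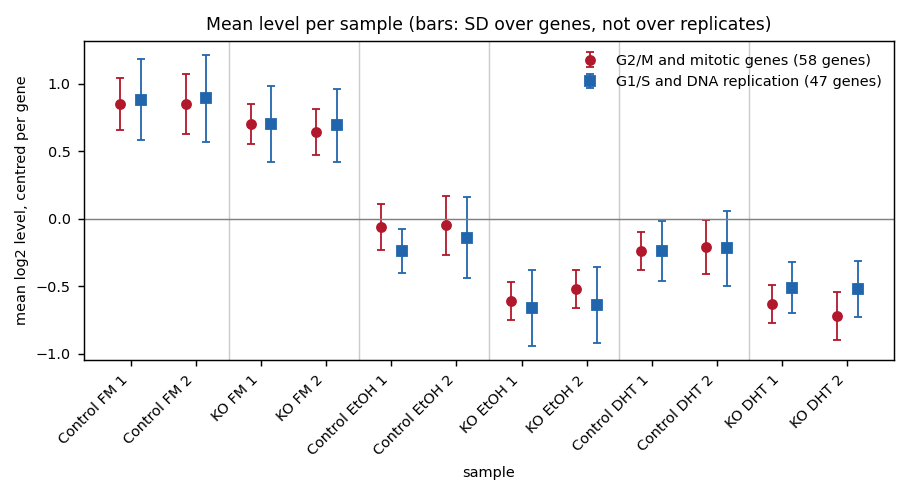
Mean centered log2 level (y axis) of the 58 G2/M and mitotic genes and of 47 genes of G1/S and DNA replication in the 12 samples (x axis), with the SD over genes as bars. Both sets are highest in Control FM and lowest in the starved KO samples.

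**Figure D3:**
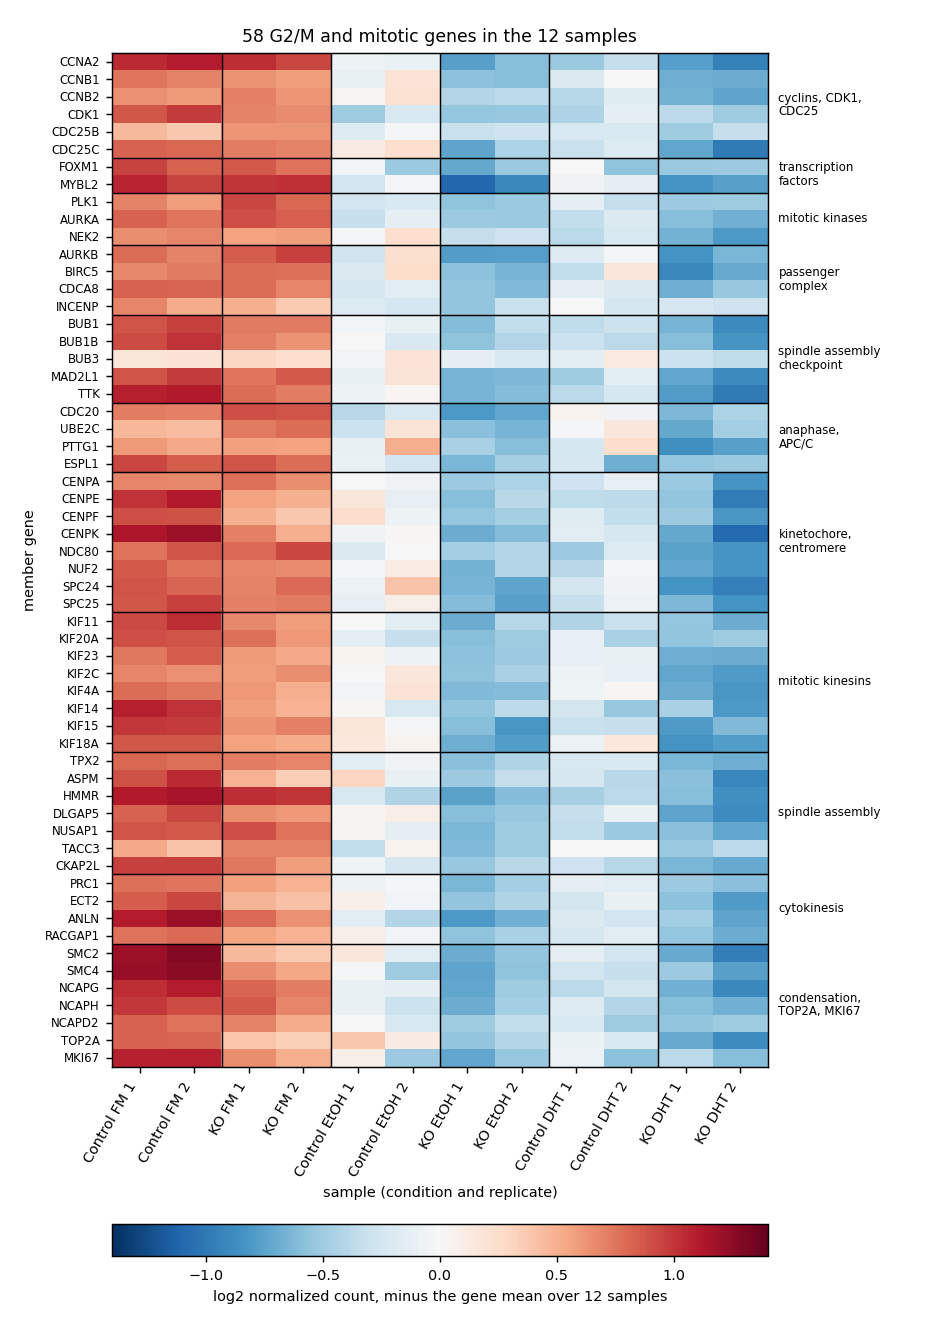
Log2 normalized count of each of the 58 members (rows, grouped by role) in the 12 samples (columns), centered on the gene's mean over the samples. The FM columns are the highest and the starved KO columns the lowest for most genes.

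FM was compared with EtOH to see how these genes differ between full medium and starvation, which differ in serum, hormone, phenol red and vehicle. In control cells 50 of the 58 rose and none fell, where 9.81% of 18549 genes tested rose and 11.5% fell. A call required a 1.5-fold change and a DESeq2 adjusted p of at most 0.05. The median log2 change was 0.89, or 1.85-fold, against -0.01 over all genes. In KO cells 57 rose and none fell, where 9.61% rose and 9.68% fell, and the median was 1.21, or 2.32-fold. Both FM samples exceeded both EtOH samples for 57 members in control cells, against 33.5% of genes tested, and for 58 in KO cells, against 37.3%. Changes are given below as log2 ± SE, for control and then KO cells. The gene that moved least was BUB3, a checkpoint protein, with 0.11 ± 0.12 and 0.44 ± 0.12. Control FM had 6064 and 6209 normalized counts of it and Control EtOH 5223 and 6143, so the ranges overlapped. In control cells 48 members were called with GC correction and 53 with exon length correction.

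The engine of mitotic entry rose in FM. Of 6 genes for cyclins, CDK1 and CDC25 phosphatases, 4 rose in control and 6 in KO cells. CCNB1 encodes cyclin B1, the partner of CDK1. Its level was 8901 and 8611 for Control FM against 4939 and 6046 for Control EtOH, then 8208 and 7939.6 for KO FM against 3561 and 3514 for KO EtOH, changes of 0.67 ± 0.12 and 1.19 ± 0.12. FM and EtOH samples were well apart in both lines. CDK1 itself went from 5594 and 6735 to 14415 and 15485 in control cells (1.28 ± 0.13), and from 5431 and 5449.8 to 12769 and 12464 in KO cells (1.21 ± 0.13). CCNA2 (cyclin A2, of S and G2 phases) rose by 1.15 ± 0.12 and 1.66 ± 0.12, and CDC25C, which activates CDK1, by 0.64 ± 0.15 and 1.29 ± 0.15. Both transcription factors of the program rose as well. MYBL2, which encodes B-MYB (chr20:42295659-42345135, GRCh37), showed the largest rise of all members in KO cells. It went from 1191 and 1372 to 5123 and 5198 there (2.01 ± 0.12, adjusted p 1.47e-61), and from 2128 and 2512 to 5359 and 4926 in control cells (1.15 ± 0.12). FOXM1 rose by 1.15 ± 0.18 and 1.42 ± 0.18. Among the kinases, PLK1 rose by 0.88 ± 0.11 and 1.42 ± 0.11, and AURKA, which acts at spindle poles, by 1.02 ± 0.11 and 1.39 ± 0.11. The chromosomal passenger complex corrects faulty attachments, and all 4 of its genes rose in both lines, with AURKB, its kinase, at 0.75 ± 0.16 and 1.69 ± 0.16 and BIRC5 (survivin) at 0.65 ± 0.17 and 1.39 ± 0.17.

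The machinery of the metaphase to anaphase transition followed. Of 5 genes of the spindle assembly checkpoint, which delays anaphase until chromosomes are attached, 4 rose in control and 4 in KO cells, among them MAD2L1, an inhibitor of CDC20 (0.89 ± 0.14 and 1.44 ± 0.14), and the kinase gene BUB1 (0.99 ± 0.12 and 1.19 ± 0.13). Of 4 genes of anaphase onset, 2 rose in control and 4 in KO cells. CDC20 went from 3385 and 3785 to 7251 and 7209 in control (1.01 ± 0.11), and from 2542 and 2666 to 8297 and 8164 in KO cells (1.66 ± 0.11). PTTG1 (securin, the inhibitor of separase) and UBE2C, a ubiquitin-conjugating enzyme of the anaphase-promoting complex, were not called in control cells (0.32 ± 0.18 and 0.49 ± 0.15), and rose in KO cells by 1.09 ± 0.18 and 1.38 ± 0.15. All 8 kinetochore and centromere genes rose in both lines, such as CENPA, the centromeric histone (0.71 ± 0.14 and 1.19 ± 0.14), CENPF (0.80 ± 0.14 and 0.95 ± 0.14) and NDC80, which binds microtubules (0.92 ± 0.14 and 1.31 ± 0.14).

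Motors, spindle and cytokinesis genes rose to a like degree. Of 8 kinesins 7 rose in control and 8 in KO cells, with KIF11 at 1.06 ± 0.13 and 1.17 ± 0.13, and KIF20A, a motor of cytokinesis, at 1.12 ± 0.13 and 1.24 ± 0.13. All 7 spindle genes rose in both lines. HMMR, a spindle-associated protein, rose by 1.45 ± 0.12 in control cells and went from 703 and 780.2 to 2438 and 2378 in KO cells. TPX2, the activator of AURKA, rose by 0.89 ± 0.10 and 1.21 ± 0.10. All 4 cytokinesis genes rose too, such as ANLN (anillin, of the contractile ring; 1.44 ± 0.13 and 1.45 ± 0.13) and PRC1 (0.82 ± 0.10 and 1.09 ± 0.10). In the group of chromosome condensation and proliferation 6 of 7 rose in control and 7 in KO cells. SMC4, a condensin ATPase, had the largest rise of all members in control cells, from 2112 and 1522 to 5000.4 and 5175 (1.49 ± 0.15). In KO cells it went from 1294 and 1456 to 3414 and 3142 (1.25 ± 0.15). NCAPD2, another condensin subunit, rose by 0.89 ± 0.13 and 1.03 ± 0.13. MKI67 (Ki-67) went from 3033 and 2010.3 to 6061 and 6125 in control cells (1.27 ± 0.19) and from 1737 and 1981 to 4513 and 4087 in KO cells (1.21 ± 0.19). TOP2A, which untangles sister chromatids, was not called in control cells (0.57 ± 0.12) and rose in KO cells (0.84 ± 0.12). Exons of NUSAP1 and PRC1 overlap other genes on the same strand over 86.83% and 57.6% of their length, and those of NCAPG and SMC4 overlap genes of the other strand over 33.71% and 22.0%. HTSeq leaves out reads it cannot assign to 1 gene, so the levels of these genes are uncertain.

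DHT was then compared with EtOH, which asks what androgen alone does. No member was called in either line. In control cells 6.04% of 17535 genes tested rose and 5.37% fell, and in KO cells 4.43% rose and 3.24% fell. edgeR also called no member, where it called 4.2% of genes higher and 4.58% lower in control cells, and 3.3% and 2.71% in KO cells. The cells had responded to the hormone: the 5 androgen-induced genes given here all rose in both lines, with log2 changes in control and KO cells of 0.86 and 1.24 for KLK3, 2.06 and 1.91 for KLK2, 1.32 and 2.70 for TMPRSS2, and 2.52 and 2.05 for ACSL3. FKBP5 rose from 2247 and 2037 to 36045 and 33569 in control and from 1450.2 and 1424 to 23628 and 22488 in KO cells. The members' median change was -0.18 in control cells, with 48 of 58 negative, and -0.14 in KO cells, with 42 negative. At an unadjusted p under 0.05, 17 were lower and 1 higher in control cells, and 8 lower and 1 higher in KO cells. That is 18 and 9 of the 58, where 29.0% of all genes tested had such a p in control and 22.3% in KO cells. By direction, 13.6% of all genes tested were lower and 15.5% higher in control cells, and about 10% lower and 12% higher in KO cells. The members with such a p thus lay mostly on the lower side, while all genes tested were split more evenly. GC and exon length corrections each left 0 members called in both lines. Sizes set by total counts moved the median of all genes to -0.15 in control and -0.09 in KO cells and left 0 members called in both.

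Small shifts passed when no fold minimum was set. In control cells 8 members were then lower and 1 higher, where 8.75% and 11.2% of genes were. Lower were CCNA2, CCNB2, CDC25C, NEK2, CENPF, KIF15, NUSAP1 and TOP2A, and CDC20 was higher (those outside the naming rule are named after their values were seen). In KO cells 1 was lower, NEK2, where 5.57% of genes were. TOP2A had 4238 and 3557 in Control EtOH and 3066 and 2820.4 in Control DHT (-0.41 ± 0.12, adjusted p 0.0052). CDC20 was the one higher, with 3385 and 3785 in EtOH and 4588 and 4264 in DHT (0.30 ± 0.11, adjusted p 0.0245). In neither gene did the DHT and EtOH samples overlap, although both shifts were below 1.5-fold. MKI67 had 3033 and 2010.3 in Control EtOH and 2721 and 1923 in Control DHT, a spread between replicates wider than the difference (-0.12 ± 0.19). CDK1 had 5594 and 6735 and 5842 and 7239.5 in these groups (0.09 ± 0.13), which overlapped. Both DHT samples lay below both EtOH samples for 28 members in control cells, against 25.0% of genes tested, and for 28 in KO cells, against 30.6%. The upper ends of the 95% intervals lay below a 1.5-fold rise (0.58) for all 58 members in both lines. The highest were 0.51 for CDC20 in control and 0.51 for MKI67 in KO cells. These intervals hold for 1 gene at a time in the main fit, and do not include the choice of size factors or the trends with exon length. A 1.5-fold fall was outside the interval for 45 members in control and 52 in KO cells. The lowest bound was -0.74, for ASPM, a spindle pole protein, which passed as lower (-0.60, adjusted p 0.00162) when Control EtOH replicate 2 was left out.

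Set against FM, the cells under DHT were low. In control cells 54 of 58 members were lower under DHT, where 8.41% of 16521 genes were, with a median log2 difference of -1.09. In KO cells all 58 were lower, where 6.28% of genes were, with a median of -1.36. No DHT sample reached an FM sample in any of the 58 genes in either line, where 34.5% and 34.7% of genes were placed so. The falls were largest in control cells for HMMR (-1.56 ± 0.12), SMC4 (-1.54 ± 0.15) and CCNA2 (-1.50 ± 0.12), and in KO cells for CCNA2 (-1.84 ± 0.12), MYBL2 (-1.81 ± 0.12) and HMMR (-1.74 ± 0.13). BUB3, UBE2C, PTTG1 and TACC3 were not called in control cells (TACC3, a spindle protein, is named after its value was seen). The FM samples are the same as in the comparison with EtOH.

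**Figure D4:**
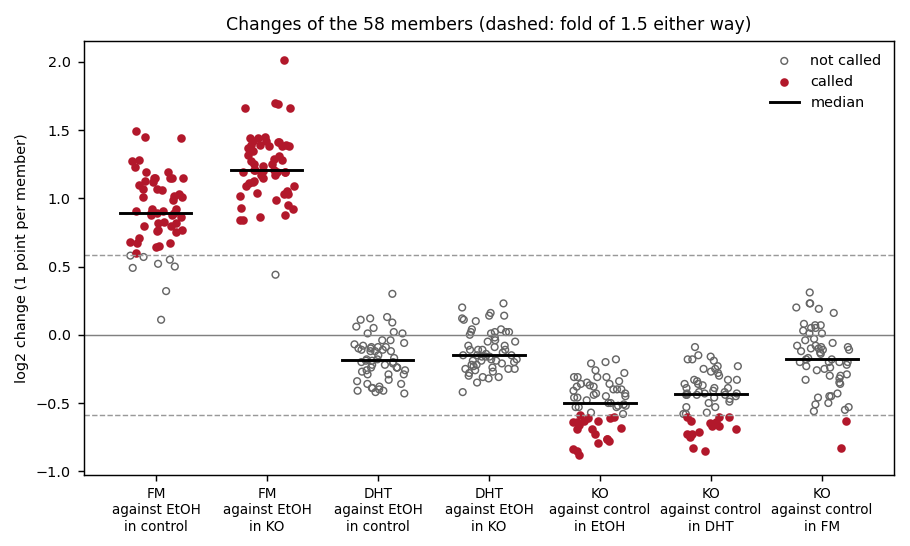
Log2 change of each member (points) in 7 comparisons, with the median as a line, 1.5-fold as dashed lines and called genes in red. FM against EtOH lies above 0 for every member (medians 0.89 and 1.21), DHT against EtOH has no called member (medians -0.18 and -0.14), and KO against control lies below 0 in EtOH and DHT (medians -0.50 and -0.43).

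KO cells were compared with control cells in each condition to see what differs with Bag-1L lost. In EtOH all 58 members had a negative log2 change, and 20 were called lower and none higher, where 2.31% of 16521 genes tested were lower and 2.8% higher. The median change was -0.50, or 0.71-fold, against -0.01 over all genes. Both KO samples lay under both control samples for all 58, against 23.5% of genes. In DHT all 58 were again negative and 15 were called lower, where 3.32% of 16014 genes were lower and 4.66% higher, with a median of -0.43, or 0.74-fold. The samples were apart in this direction for 51 members, against 30.7% of genes. Without the fold minimum 41 were lower in EtOH, against 5.1% of genes, and 39 in DHT, against 8.73%. These comparisons share no samples, but they use the same clonal lines and the same fit and are not independent. Called in both were 14 members, of the 20 in EtOH and the 15 in DHT.

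The genes that fell came from most roles. SPC24, a subunit of the kinetochore's microtubule-binding complex, fell most in EtOH. Its normalized counts were 775 and 1086 for Control EtOH and 523 and 491 for KO EtOH (-0.88 ± 0.16, adjusted p 2.34e-06), then 688 and 794 for Control DHT and 458 and 422 for KO DHT (-0.75 ± 0.16). MYBL2 was next in EtOH, with 2128 and 2512 for control against 1191 and 1372 for KO cells (-0.85 ± 0.12, adjusted p 1.67e-10). In DHT it had 2478 and 2342 against 1438 and 1513 (-0.71 ± 0.12). KIF18A, a kinesin that limits the length of kinetochore microtubules, fell most in DHT, with 311 and 366 against 184 and 192 (-0.85 ± 0.16), and in EtOH it had 366 and 342 against 205 and 192 (-0.84 ± 0.16). Under DHT PTTG1 had 1928 and 2718 in control against 1263 and 1354 in KO cells (-0.83 ± 0.18, adjusted p 0.000162), with a change of -0.76 ± 0.18 in EtOH. In each of SPC24, MYBL2, KIF18A and PTTG1 every KO sample was under every control sample of its condition. Among the other named genes called in both conditions, the changes in EtOH and DHT were -0.63 ± 0.12 and -0.60 ± 0.12 for CCNB1, -0.76 ± 0.16 and -0.60 ± 0.16 for CDC25C, -0.78 ± 0.16 and -0.65 ± 0.16 for AURKB, -0.66 ± 0.18 and -0.73 ± 0.18 for BIRC5, and -0.73 ± 0.12 and -0.64 ± 0.12 for TOP2A.

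By role, the called genes in EtOH were 3 of 6 for cyclins, CDK1 and CDC25, 1 of 2 transcription factors, 2 of 4 in the passenger complex, 2 of 5 in the checkpoint, 1 of 4 in anaphase onset, 4 of 8 at the kinetochore, 4 of 8 kinesins, 1 of 7 spindle genes and 2 of 7 in condensation and proliferation. None of the 3 mitotic kinases or 4 cytokinesis genes was called in EtOH or DHT, with medians of -0.31 and -0.50 in EtOH. CDK1 had values of -0.18 ± 0.13 and -0.16 ± 0.13 in EtOH and DHT, FOXM1 -0.35 ± 0.18 and -0.27 ± 0.18, and MKI67 -0.44 ± 0.19 and -0.18 ± 0.19, and none of these was called. The counts depended on scaling: with sizes set by total counts, which moved the median of all genes to 0.05 in EtOH and 0.10 in DHT, 12 and 6 members were called lower. With GC correction 17 and 13 were called, and with exon length correction 19 and 13. Leaving out Control DHT replicate 2 gave 8 in DHT.

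**Figure D5:**
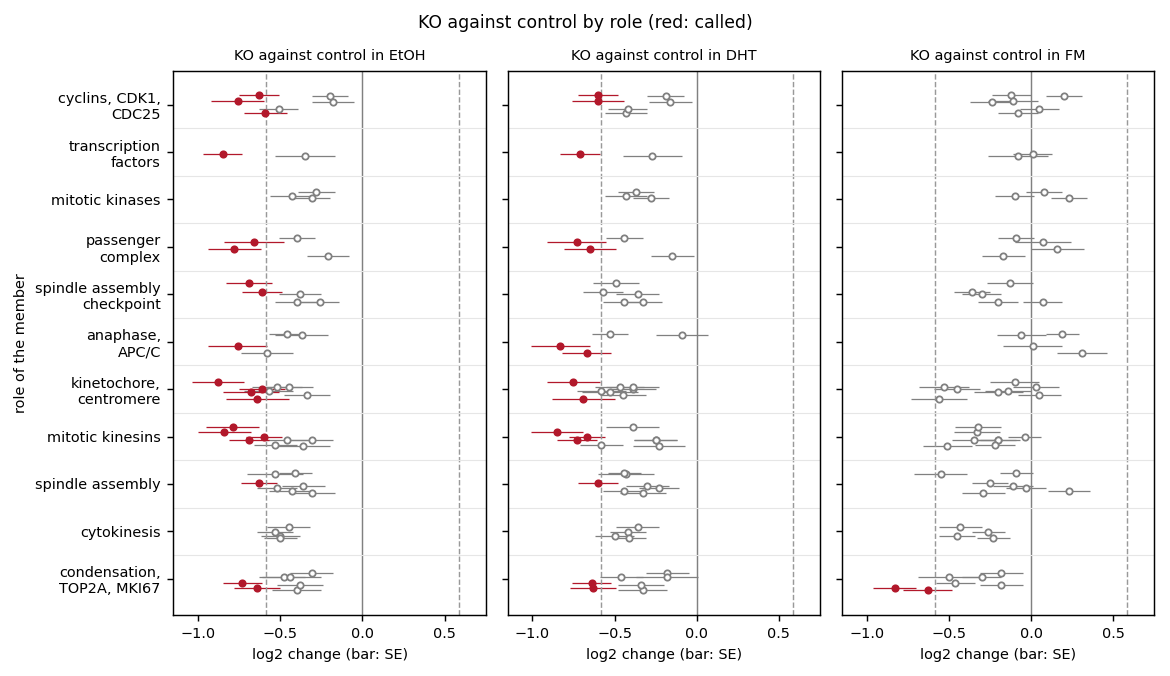
Log2 change of KO against control with its SE for each member, grouped by role, in EtOH, DHT and FM (panels); called genes are red and dashed lines mark 1.5-fold. All 58 points lie below 0 in EtOH and in DHT, and in FM 44 do, with SMC2 and SMC4 called.

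In FM fewer members were called. The median change was -0.17, 44 were negative, and 2 were called lower and none higher, where 2.6% of 15000 genes tested were lower and 5.41% higher. For 40 members both KO samples lay under both control samples, against 38.6% of genes. Without the fold minimum 13 were lower, against 9.24%. The 2 calls are close to the share of all genes called lower. They were the genes of the condensin ATPases, and the other condensin members NCAPD2, NCAPG and NCAPH were not called. SMC2 (chr9:106856541-106903700, GRCh37) had 3176 and 3372 in Control FM against 1897 and 1779 in KO FM (-0.83 ± 0.13, adjusted p 5.83e-08). SMC4 (chr3:160117062-160152742) had 5000.4 and 5175 against 3414 and 3142 (-0.63 ± 0.15, adjusted p 0.000485). Both were lower in each KO sample by far more than the replicates differed. SMC2 was also the single member called in all 3 conditions, with -0.64 ± 0.14 in EtOH and -0.63 ± 0.14 in DHT. These are AT-rich genes (37.57% and 37.38% GC, where the median member had 42.7%), and over the 58 members the change in FM went up with GC content (Spearman's rho 0.70, and 0.49 over 14650 genes) and down with exon length (-0.58 and -0.26); these points share their libraries. After GC correction SMC2 stayed called at -0.64, and SMC4 at -0.44 was not called. SMC4 was also not called with exon length correction (-0.56) or total-count sizes (-0.57). UBE2C (0.31 ± 0.15), PLK1 (0.23 ± 0.11) and CDC20 (0.19 ± 0.10) had positive values that were not called. Leaving out KO FM replicate 2 left 1 member called.

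The responses of the lines were compared directly, as a difference of log2 changes. For DHT no member was called, where 0.223% of 13478 genes had a higher and 0.185% a lower response in KO cells. By DESeq2 0 members had an unadjusted p under 0.05, where only 4.3% of all genes tested had one. edgeR called no member, where it called 0.0497% and 0.0421% of genes. Few genes passed either way, so these zeros do not show that the responses were equal. The median difference was 0.03, and for 49 of 58 members the 95% interval lay within 1.5-fold in either direction. GC and exon length corrections also gave 0 calls. For FM 6 members responded more in KO cells and none less, where 0.748% of 12971 genes responded more and 0.64% less. The median difference was 0.32, with 51 of 58 positive. The differences were 0.94 ± 0.23 (adjusted p 0.00602) for AURKB, 0.89 ± 0.22 (adjusted p 0.00685) for UBE2C, 0.86 ± 0.17 (adjusted p 0.000114) for MYBL2, 0.77 ± 0.22 (adjusted p 0.0374) for SPC24, 0.66 ± 0.19 (adjusted p 0.0408) for TACC3 and 0.65 ± 0.15 (adjusted p 0.00313) for CDC20. For AURKB, EtOH gave 612 and 865 in control and 429.5 and 433 in KO cells, while FM gave 1279.9 and 1203 in control and 1335 and 1444 in KO cells. UBE2C had the same layout, with 889.8 and 1239 in control and 730.2 and 696 in KO cells under EtOH, and 1508 and 1482 in control and 1818 and 1892 in KO cells under FM. In both genes KO was below control after starvation and above it in FM. MYBL2 overlapped between the lines in FM and was lower in KO cells after starvation.

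These 6 calls were unequal in strength. edgeR called MYBL2 alone (adjusted p 0.0177), where it called 0.141% of genes, and gave the other 5 adjusted p-values from 0.0507 to 0.128. With Control EtOH replicate 1 left out 14 members were called, but 9.05% of all genes tested were then called higher, and with any of the other 7 libraries left out 1 or 2 members and 0.179% to 0.37% of genes were, MYBL2 being called in all 8 of these fits. Over the members the difference went down with exon length (rho -0.63, and -0.41 over 12729 genes) and up with GC content (0.52 and 0.47). After GC correction 8 members were called, with AURKB, UBE2C and MYBL2 among them, and after exon length correction 5, which were the 6 without CDC20.

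Genes beside the members in the cell cycle were counted in the same fits, and those of them named as the few called in a comparison were picked after their values were seen. Of 47 genes of G1/S and DNA replication, 41 rose with FM in control and 44 in KO cells, where 9.81% and 9.61% of all genes did. In KO against control 15 were lower in EtOH, 5 in DHT and 1 in FM, where 2.31%, 3.32% and 2.6% of all genes were. With DHT 1 was called higher and 1 lower in control cells, where 6.04% and 5.37% of all genes were. In KO cells 2 were higher and 0 lower, where 4.43% and 3.24% were, so the DHT calls are no more frequent than over all genes. DHT raised CDC6, which loads the replicative helicase, in both lines (0.61 and 0.67 on the log2 scale), and CDC25A passed the fold minimum in KO cells (0.60) and on adjusted p alone in control cells (0.50). MCM3, a helicase subunit, fell in control cells (-0.60) and was at -0.22 in KO cells. The difference between the lines was not called for CDC25A or MCM3. Of 44 other mitotic genes, 35 rose with FM in control and 42 in KO cells. By DESeq2 14 were lower in KO than control cells in EtOH, 8 in DHT and 0 in FM, beside the same shares of all genes. In FM 14 of 44 had an unadjusted p under 0.05, 11 lower and 3 higher. Of all genes tested 31.3% had such a p, with 16.1% lower and 15.3% higher. A single gene of that list was called higher with DHT in control cells, under the 6.04% of all genes. It was CENPN, a centromere protein, which went from 773 and 865 to 2929 and 3111 (1.88 ± 0.12). In KO cells it rose from 512 and 543 to 3881 and 3332 (2.77 ± 0.12), and the difference between the lines was called (0.89 ± 0.17). Every DHT sample of CENPN was above every EtOH sample. In KO cells 2 of the 44 were called higher with DHT, CENPN among them, where 4.43% of all genes were. The response to FM was called larger in KO cells for 2 of the 47 and 6 of the 44, where 0.748% of all genes were. The median difference was 0.31 with 41 of the 47 positive, and 0.37 with 40 of the 44 positive.

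Condensin II also contains SMC2 and SMC4, and cohesin is a related complex. The 11 genes counted here for condensin II and cohesin leave out SMC2 and SMC4, which are members. Of the 11, 1 rose with DHT, in both lines, where 6.04% of all genes rose in control and 4.43% in KO cells. It was NCAPD3, a condensin II subunit, which went from 1987 and 1789.5 to 13308 and 11370.2 in control cells (2.71 ± 0.12) and from 1504 and 1651 to 13003 and 11834 in KO cells (2.98 ± 0.12). All its DHT samples were above all its other samples. By DESeq2 none of the 11 was called between KO and control in any condition, where 4, 3 and 8 had an unadjusted p under 0.05 in EtOH, DHT and FM, against 20.3%, 28.2% and 31.3% of all genes tested. In FM all 8 were lower, where 16.1% of all genes tested were lower at such a p. Of 16 genes of DREAM, MuvB and NF-Y, which bind the promoter elements above, 5 rose with FM in control and 4 in KO cells, against 9.81% and 9.61% of all genes. MYBL1 rose with DHT in control cells (0.68) and was at 0.37 in KO cells, with no difference called. Of 16 subunits and inhibitors of the anaphase-promoting complex 4 and 2 rose with FM, beside the same shares of all genes, and 1, CDC26, was lower in KO than control cells in DHT (-0.68), where 3.32% of all genes were; in KO cells and in DHT these counts are close to those shares. Among 7 CDK inhibitors and inhibitory kinases of CDK1, CDKN1C (p57) fell with FM in both lines (-2.50 in control and -1.72 in KO cells). CDKN1A (p21) rose with DHT in control cells (0.83) and passed on adjusted p alone in KO cells (0.39), with no difference called. The kinase genes WEE1 and PKMYT1 were lower in KO than control cells in EtOH (-0.71 and -0.69), and WEE1 also in DHT (-0.63).

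Sorted by their promoters, members with CHR letters and members without them both rose with FM: 34 of 37 with CHR in control cells (median 0.91) and 10 of 13 without (median 0.75). In KO against control in EtOH 10 of the 37 and 8 of the 13 were called lower, with medians of -0.46 and -0.60, and in DHT 6 and 7. The difference between these subsets was not tested. MYBL2, whose promoter printed above had no match to the CHR or CCAAT letters, was among the largest rises with FM in KO cells. It was also among the largest falls of KO against control in EtOH.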

How the data were processed

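RNA-seq was available for 12 samples in 6 groups of 2. The values used were raw read counts per Ensembl gene, made by the authors from stranded poly(A) libraries and deposited without normalization. The submitters' processing notes name CASAVA 1.7, TopHat 2.0.11 and HTSeq 0.5.3p3, with GRCh37 as the build. The strand setting of HTSeq and the Ensembl release were not given in the sources used here. Tallies of unassigned reads were left out. Symbols, exon lengths and GC contents came from GENCODE on GRCh37, which held 55665 of 63677 identifiers.

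Genes with fewer than 10 counts in all were dropped, which kept 26156. DESeq2 1.42.0 (R 4.3.3) was fitted to all 12 samples at once, with a coefficient per group, median-of-ratios size factors and Wald tests. A gene was called at a Benjamini-Hochberg adjusted p of at most 0.05 over all genes tested and a fold change of at least 1.5. Intervals are 1.96 SE on either side. Whether the replicates came from separate cultures is given only as biological duplicates, and p-values measure the spread between these samples. The fit was tested on simulated data in which 200 genes were changed in Control FM alone. For FM against EtOH in control, DESeq2 recovered 85% of the larger and 73% of the smaller changes, all over 1.5-fold, with 10 false calls. The simulated data held no trend with exon length or GC content, so they cannot show how the fit deals with one.

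The members and gene lists were chosen with earlier results of these data known. Named members were those picked by role as core genes, the 3 largest called rises and falls of a comparison, and every member called where at most 10 were. Of the other lists the largest rise and fall could be named, and the androgen and luminal genes in full; some genes of these lists are not reported here. Alternatives were edgeR 4.0.16 with TMM, other size factors and filters, a replicate block, only the groups compared, no fold minimum and each library left out. Corrections for GC content and exon length were added after seeing the data.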

Additional observations from a re-analysis of the deposited data

Results flagged for a closer look

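For 6 members the rise in FM over EtOH was larger in KO than in control cells by a test of the difference itself (DESeq2, an interaction contrast with 2 replicates in each of 4 groups). The difference on the log2 scale was 0.94 for AURKB, 0.89 for UBE2C, 0.86 for MYBL2, 0.77 for SPC24, 0.66 for TACC3 and 0.65 for CDC20. Of 17 alternatives, MYBL2 was called in 17, AURKB in 11, UBE2C in 10, and SPC24, TACC3 and CDC20 in 7 each. The ranges over these alternatives were 0.64 to 0.97 for MYBL2, 0.67 to 1.17 for AURKB, 0.63 to 1.11 for UBE2C, 0.51 to 0.99 for SPC24, 0.45 to 0.84 for TACC3 and 0.46 to 0.73 for CDC20, positive throughout. Leaving out 1 of 8 libraries at a time kept AURKB called in 3 fits, UBE2C in 2, and SPC24, TACC3 and CDC20 in 1 each. All 6 contrasts rest on the Control EtOH pair, in which short genes read higher in replicate 2. They also rest on Control FM, KO FM and KO EtOH, whose pairs differed with exon length or GC content too. The part these trends had in the differences was not tested beyond the length and GC corrections. MYBL2 has 2776 bases of exon and 60.54% GC and AURKB 2241 and 55.58%.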

How the results depend on the processing

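The 319 values of named genes gave 4379 recomputed values, of which 4251 kept their direction and side of the threshold, 103 were no longer called, 25 became called and 0 called values reversed, while 139 uncalled values changed sign. Of 162 recomputed medians over the members 138 moved by less than the spread between replicates, 24 moved by more and 0 reversed. With no fold minimum 9 members were called for DHT against EtOH in control (1 higher and 8 lower), 1 in KO, and for KO against control 41 in EtOH, 39 in DHT and 13 in FM. Total-count size factors gave 12, 6 and 1 for KO against control in EtOH, DHT and FM, and GC correction 1 in FM. edgeR gave 1 for the difference in FM response. With each library left out in turn, calls ranged from 44 to 56 for FM against EtOH in control, 0 to 1 for DHT against EtOH in control, 15 to 22 for KO against control in EtOH, 8 to 20 in DHT (8 without Control DHT replicate 2), 1 to 3 in FM (1 without KO FM replicate 2) and 1 to 14 for the difference in FM response (14 without Control EtOH replicate 1, where 9.05% of all genes tested were called higher, and 1 or 2 without any other, where 0.179% to 0.37% were). The cause of these changes was not tested. A fit with a lone sample in a group assumes that it varies like the others. Same-numbered replicates deviated together in some groups only: over 11374 genes the 6 correlations among Control EtOH, Control DHT, KO FM and KO DHT ran from 0.159 to 0.692, and the 9 with Control FM or KO EtOH from -0.415 to 0.036. As not every correlation was over 0.1, the numbers were not treated as pairs. With a replicate block 7 members in place of 6 were called for the difference in FM response, and no other count of members called changed. The members' counts were well above the floor of 3 counts in every sample.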
